A study of Mus musculus with 8 samples.

Results

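The genes described here are 60 mouse genes named Zfp followed by a number whose mRNA was readily counted in both B cells and T cells of the resting spleen. A gene was taken when it had at least 200 counts in each of the 4 RNA-seq libraries, with Zfp36 and Zfp608 set aside. Of the 53801 Ensembl gene IDs in the counts, 372 carried such a symbol, 60 reached the floor and 312 did not. The genes were thus chosen by their RNA-seq counts, and their mRNA levels are given as a description. Zfp871 was not among them, with mRNA counts of 83 and 49 in B cells against 106 and 28 in T cells. Just inside the floor lay Zfp277, with a lowest count of 201, Zfp512 with 208 and Zfp444 with 210. Just outside it lay Zfp318, Zfp868 and Zfp956, each with a lowest count of 197.

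Most genes of this name encode C2H2 zinc finger proteins, in which a zinc ion held by cysteines and histidines folds each finger, and runs of fingers read a stretch of DNA. Many also carry a KRAB domain, which recruits the corepressor Trim28 and, through it, histone methylation at retroelements and imprinted genes. Others have no such domain and bind RNA, ribosomes or chromatin complexes.

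The cells were total resting B cells and total T cells, sorted magnetically from the spleens of B6 mice and kept for 2 hours in complete RPMI medium. Each cell type was measured by RNA-seq and by ribosome profiling, which counts the mRNA fragments protected by ribosomes, called footprints. Cells for ribosome profiling also received cycloheximide, an inhibitor of translation elongation, at 100 µg/ml for 15 minutes. Each of the 4 groups held 2 libraries, and n is 2 libraries per group throughout. The libraries were numbered 1 and 3 in both assays of B cells, 1 and 4 in T cell RNA-seq, and 1 and 2 in T cell ribosome profiling. The labels do not say whether the libraries of a group came from separate animals, and each p-value reflects only how these libraries vary.

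RNA-seq libraries held 8945905 to 10050986 counts and footprint libraries 136433 to 627833. The median count of the 60 genes ran from 369.5 to 453 in RNA-seq, and was 10 and 9 in B cell footprints and 25 and 5 in T cell footprints. Footprint differences for single genes thus rest on few counts. RNA of marker genes of the other cell type was present to a different degree in each library, and its source was not tested. The 20 T cell marker genes had a median level in B cell RNA-seq of 0.670% of that in T cells in library 1 and of 10.2% in library 3. In B cell footprints they stood at 1.16% and 4.35%. The 18 B cell marker genes stood at 0.930% and 1.72% in T cell RNA-seq and at 1.87% and 4.89% in T cell footprints. Xist, which is expressed from the inactive X chromosome of females, was counted 2362 and 2 times in the RNA of B cells, and 1437 and 3 times in that of T cells, and 4 Y-linked genes 8 and 1616 times in B cells and 6 and 1575 times in T cells. The RNA-seq libraries of each group therefore came from different mice, female in library 1 and male in the other. In footprints the Y-linked genes had 72 and 53 counts for B cells, and 3 and 35 for T cells, where library 1 is the deeper. Both B cell footprint libraries thus held RNA of males, and B cell library 1 was not from mice of the same sex in the 2 assays. Sex was therefore uneven between the B and T footprints and within the B cell ratios. The part of sex, and of marker RNA from the other cell type, in the differences below was not tested.

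The 60 genes lay on 18 chromosomes, and 12 of them on chromosome 7, where many zinc finger genes stand in clusters. A gene with the same kind of symbol lay within 200 kb of 20 of the 60 (33.3%), against 212 of the 307 placed genes under the floor (69.1%). In RefSeq's 300-base windows around annotated starts on GRCm38.p6, 49 of the 60 genes matched, with 61 promoters. On both strands, 8 motifs were searched: the ETS motif CCGGAAG, the NRF1 motif GCATGCGC, the GC box core GGGCGG, the NF-Y box CCAAT, the cyclic AMP response element TGACGTCA, the YY1 motif AAGATGGC, the core promoter word TATAAA and the E-box CACGTG. No motif contains another, though matches may overlap at their ends. The GC box core stood in 67.2% of these promoters, against 39.3% of the promoters of the same-named genes under the floor, 66.2% for all genes at the floor and 35.7% of all promoters. The NF-Y box stood in 36.1%, against 50.5%, 36.7% and 37.4%. The ETS motif stood in 23.0%, against 21.3%, 22.5% and 8.86%. The median number of CG dinucleotides was 20, against 12, 22 and 7. In the GC box core, the NF-Y box and CG dinucleotides the 60 genes lay nearer to all genes at the floor than to their namesakes under it, as a description and without a test. The E-box went the other way, with 6.56% against 6.89% for the namesakes and 11.4% for all genes at the floor. The cyclic AMP response element, with 1.64% against 3.93% and 3.42%, and TATAAA, with 4.92% against 7.21% and 6.49%, were below both.

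The stretches before the starts are shown for a pair of genes whose mRNA was higher in B cells, Zfp710 and Zfp513, and for Zfp281, which had the lowest B over T ratio of mRNA among the 60. Each is given 5′ to 3′ on the gene's own strand, as 250 bases ending at the base before the RefSeq start on GRCm38.p6. Capitals mark matches to the 8 motifs on either strand. Zfp710, at chr7:80024564-80024813 on the plus strand, has 1 NF-Y box in reverse and no GC box core. Zfp513, at chr5:31202304-31202553 on the minus strand, before the more upstream of its starts in that table, also has 1 NF-Y box in reverse. The stretch before its other start, at chr5:31202043-31202292, has 2 GC box cores and no NF-Y box and is not printed. Zfp281, at chr1:136624651-136624900 on the plus strand, has 1 NF-Y box forward and 4 GC box cores in reverse. These are matches of letters, and binding was not measured.
Zfp710: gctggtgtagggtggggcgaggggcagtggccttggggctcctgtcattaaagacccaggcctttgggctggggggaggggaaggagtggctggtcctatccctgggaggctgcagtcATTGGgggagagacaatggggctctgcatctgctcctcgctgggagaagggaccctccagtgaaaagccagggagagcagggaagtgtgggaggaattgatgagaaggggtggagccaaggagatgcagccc
Zfp513: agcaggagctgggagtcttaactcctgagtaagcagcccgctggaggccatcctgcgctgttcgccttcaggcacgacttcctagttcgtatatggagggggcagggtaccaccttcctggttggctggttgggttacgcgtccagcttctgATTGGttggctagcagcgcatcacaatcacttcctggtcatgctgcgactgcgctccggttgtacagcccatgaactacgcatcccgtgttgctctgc
Zfp281: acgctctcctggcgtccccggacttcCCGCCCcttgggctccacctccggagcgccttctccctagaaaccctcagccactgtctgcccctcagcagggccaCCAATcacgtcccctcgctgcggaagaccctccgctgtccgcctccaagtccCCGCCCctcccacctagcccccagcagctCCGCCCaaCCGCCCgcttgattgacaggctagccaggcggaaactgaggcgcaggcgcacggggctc

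At the mRNA level 3 of the 60 genes, Zfp706, Zfp710 and Zfp513, rose in B cells relative to T cells, and none passed the test as lower. Differences here are log2 B over T cells, with a standard error, from edgeR's quasi-likelihood test with Benjamini-Hochberg adjustment over all 13929 genes tested, at an adjusted p of 0.05. Over all genes 9.40% were called higher in B cells and 9.06% lower. The counts of 3 and 0 among the 60 are to be read against those shares. The same test called all 18 B cell marker genes higher. It called only 4 of the 20 T cell marker genes lower, though their median log2 difference was -4.22. DESeq2 called 5 of the 60 higher and 1 lower, against 11.1% and 11.5% of all genes. At an unadjusted p of 0.05 in edgeR, 6 were higher and 2 lower, against 15.5% and 16.9%. In the model of all 8 libraries none of the 60 was called, and Zfp706, Zfp710 and Zfp513 lost their calls.

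Zfp706 encodes a short zinc finger protein and lies on chromosome 15 at 36997027 to 37007402. Its mRNA stood at 177 and 203 CPM (counts scaled to the library total, which TMM adjusts) in B cells and at 86.7 and 106 in T cells. The lower B cell library was well above the higher T cell library, and the log2 difference was 0.98 ± 0.17, or 1.97-fold, with an adjusted p of 0.0234 in edgeR. Zfp710 lies on chromosome 7 at 80024814 to 80092751. Its mRNA was at 46.0 and 49.2 CPM in B cells and at 27.1 and 26.7 in T cells, so that libraries of the same cell type nearly coincided. The log2 difference was 0.82 ± 0.14, or 1.77-fold, with an adjusted p of 0.0244. Zfp513, a transcription factor linked to retinal disease, lies on chromosome 5 at 31198981 to 31202663. It was at 43.3 and 49.3 CPM in B cells against 26.6 and 27.7 in T cells, again without overlap. The log2 difference was 0.77 ± 0.15, or 1.71-fold, with an adjusted p of 0.0331. In each of the 3 genes the B cell library with more T cell marker RNA, library 3, had the higher level of the pair. The calls depended on single libraries. Without B cell library 3, or without T cell library 1, none of the 3 passed, with adjusted p from 0.0541 to 0.170. Without B cell library 1 only Zfp706 passed, and without T cell library 4 Zfp706 and Zfp710 did. In bulk samples, fewer cells that express a gene and less RNA per cell cannot be told apart.

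**Figure D1:**
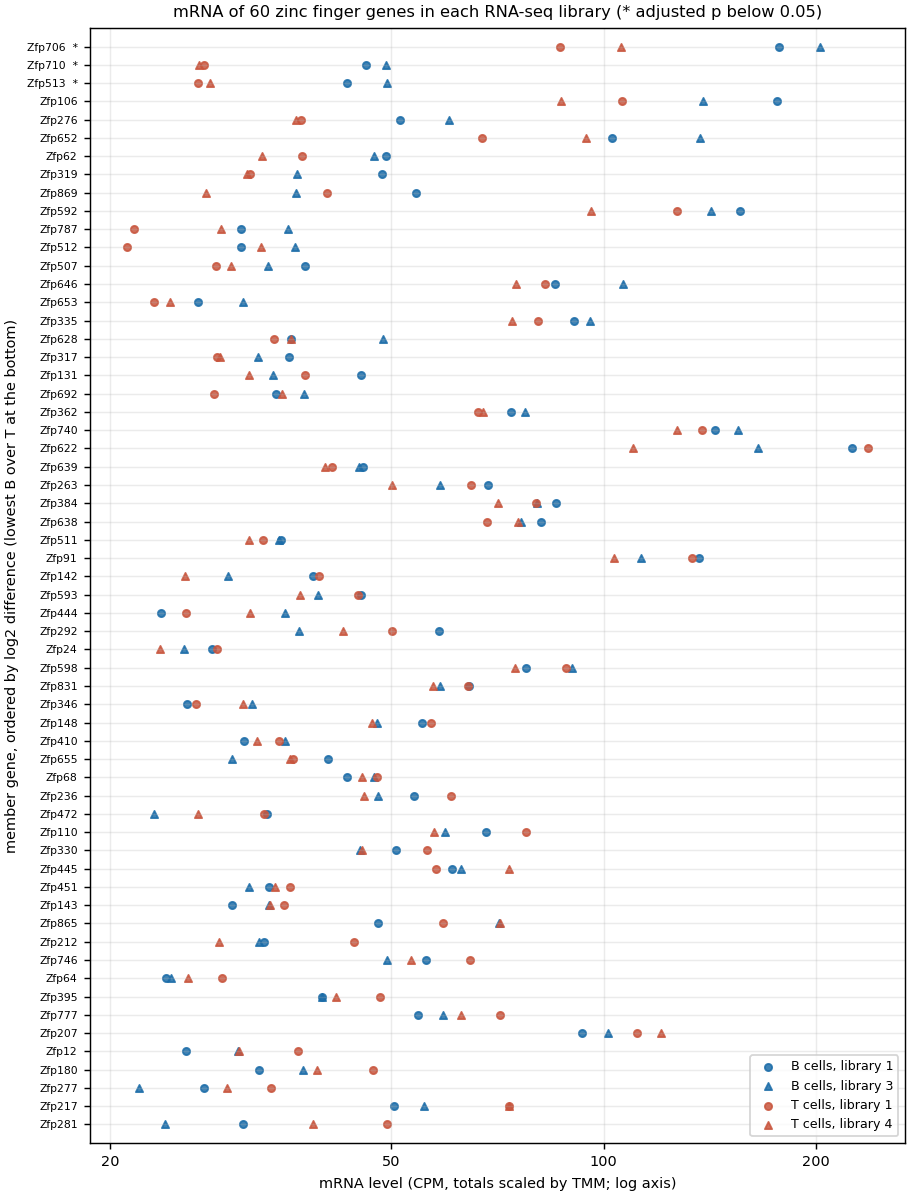
mRNA level of the 60 zinc finger genes in each RNA-seq library, in CPM with totals scaled by TMM on a log axis, 1 gene per line, ordered by the log2 difference between B cells (blue) and T cells (red), with circles for library 1 and triangles for library 3 or 4. Only points on the same line are to be compared, since CPM depends on transcript length, and the 3 starred genes at the top have both blue points to the right of both red ones.

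The other 57 genes did not pass the test, and most differed little. The difference was under 1.5-fold for 54 of the 60 (90.0%), against 81.1% of the 5818 genes at the same floor and 61.4% of all genes tested. The median log2 difference of the 60 was 0.06, against 0.01 for all genes at the floor. The median size of the difference, regardless of sign, was 0.17, against 0.23. The levels of the pairs of libraries did not overlap for 32 of the 60, 21 with the B cells higher and 11 with the T cells higher, or 35.0% and 18.3%. Of all genes at the floor 30.8% and 27.9% had such pairs, and edgeR called 9.40% and 9.06% of all genes tested. Among genes at the floor 8.32% were called higher in B cells and 6.03% lower. The floor itself keeps out genes that are low in either cell type.

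Closest to the threshold were several genes named here after their values were seen. Zfp276 was at 51.4 and 60.5 CPM in B cells against 37.2 and 36.7 in T cells, with a log2 difference of 0.60 ± 0.15 and an adjusted p of 0.0533. Zfp106, an RNA-binding protein needed by motor neurons and muscle, was at 176 and 138 CPM in B cells against 106 and 87.0 in T cells. Its B cell levels were both above the T cell levels, with a log2 difference of 0.70 ± 0.19 and an adjusted p of 0.0684. Zfp217, a subunit of corepressor complexes that is amplified in some cancers, was at 50.4 and 55.6 CPM in B cells against 73.5 and 73.4 in T cells. The T cell libraries nearly coincided, and the log2 difference was -0.47 ± 0.12 with an adjusted p of 0.0564. Zfp281, which binds GC-rich DNA, was at 30.9 and 23.9 CPM in B cells against 49.4 and 38.8 in T cells. Its log2 difference was -0.69 ± 0.22 with an adjusted p of 0.100. In DESeq2 Zfp276, Zfp106 and Zfp217 passed.

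Of 6 genes whose proteins act on RNA, ribosomes or the spindle, none passed the test in mRNA. Zfp598 is the ubiquitin ligase that marks collided ribosomes. It was at 77.7 and 90.1 CPM in B cells against 88.5 and 74.9 in T cells, and the ranges overlapped. Zfp622, a maturation factor of the large ribosomal subunit, was at 225 and 165 CPM in B cells against 236 and 110 in T cells. Libraries of the same T cell group thus differed more than the cell types did, and the log2 difference was 0.17 ± 0.40. Zfp207, which binds spindle microtubules and the checkpoint protein Bub3, was at 93.3 and 102 CPM in B cells against 112 and 120 in T cells, higher in T cells in both libraries but with a log2 difference of only -0.25 ± 0.12. Zfp638, a nuclear RNA- and DNA-binding protein, was at 81.5 and 76.4 CPM in B cells against 68.3 and 75.5 in T cells. Zfp346, which binds double-stranded RNA, was at 25.7 and 31.8 CPM in B cells against 26.4 and 30.9 in T cells. Zfp106 is described above.

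The same held for the 3 genes with known roles in lymphocytes. Zfp335, which is needed for the maturation of naive T cells, was at 90.9 and 95.8 CPM in B cells against 80.6 and 74.1 in T cells. The B cell levels were higher in both libraries, but the log2 difference of 0.27 ± 0.12 did not pass, with an adjusted p of 0.190. Zfp91, a protein of NF-kappaB signalling, was at 137 and 113 CPM in B cells against 134 and 103 in T cells. Zfp292, a large transcription factor, was at 58.4 and 37.1 CPM in B cells against 50.1 and 42.8 in T cells. The T cell levels of Zfp292 lay between the B cell levels.

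Of 10 genes for transcription or chromatin factors none was called. Zfp592, a partner of the chromatin reader Zmynd8, was at 156 and 142 CPM in B cells against 127 and 96.0 in T cells, with a log2 difference of 0.42 ± 0.18. Zfp740 was at 144 and 155 CPM in B cells against 138 and 127 in T cells. Zfp148, a GC-rich DNA-binding relative of Zfp281, was at 55.3 and 47.8 CPM in B cells against 56.9 and 47.0 in T cells. Its log2 difference was -0.01 ± 0.16. Zfp143, an activator of small nuclear RNA promoters and many others, was at 29.7 and 33.6 CPM in B cells against 35.3 and 33.7 in T cells. The log2 differences of Zfp131, Zfp263, Zfp384 and Zfp410 were 0.19, 0.15, 0.14 and -0.01. Zfp445, the only one of the 60 on the list of factors for imprints and retroelements, was at 61.0 and 62.9 CPM in B cells against 58.0 and 73.3 in T cells.

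The 40 genes on none of these role lists included all 3 that were called. Their median log2 difference was 0.06 and their range ran from -0.36 for Zfp277 to 0.98 for Zfp706. KRAB proteins act through a shared set of partners, and these were compared as a list of 24 genes. Their median log2 difference in mRNA was -0.06, and 0 were higher in B cells and 1 was lower, against 9.40% and 9.06% of all genes. That gene was Chd3, a nucleosome remodeller of the NuRD complex, with a log2 difference of -1.45 ± 0.23 and an adjusted p of 0.0207. Trim28 itself differed by -0.06 ± 0.15. Among 46 tested C2H2 factors of other names, such as the Ikaros, Klf and Zbtb families, 7 were called higher in B cells and 7 lower. That was 15.2% each, against 9.40% and 9.06% of all genes.

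In footprints none of the zinc finger genes was called. Only 33 of the 60 passed the filter on low counts, and the other 27 were too sparsely covered to enter. In edgeR 0 were higher and 0 lower, against 8.38% and 4.80% of the 4771 genes tested. Among the 3861 tested genes at the floor the shares were lower, at 3.81% and 2.12%. DESeq2 also called 0 of the 33, against 6.85% and 3.37% of all genes. At an unadjusted p of 0.05 edgeR had 3 higher and 4 lower, against 13.4% and 10.3% of all genes tested. Of the 3861 tested genes at the floor, 344 were higher and 263 lower at that p. The median log2 difference of the 33 was -0.06, against 0.02 for all genes tested, and the median standard error was 0.51. At this depth even the largest difference among the 33, 3.56-fold for Zfp710, did not pass. The 0 calls therefore do not exclude differences of 2-fold or more in single genes.

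The footprints of Zfp710 gave the largest difference with B cells higher. It had 17 and 14 counts in B cells against 16 and 1 in T cells, or 79.6 and 73.6 CPM against 25.7 and 7.96. Both B cell libraries were above both T cell libraries, and the log2 difference was 1.83 ± 0.57, with an adjusted p of 0.0574 in edgeR. Zfp106 had 32 and 34 counts in B cells against 40 and 10 in T cells, or 150 and 179 CPM against 64.2 and 79.6. The libraries did not overlap, and the log2 difference was 1.23 ± 0.43, with an adjusted p of 0.0924. Zfp319 had 15 and 17 counts against 25 and 1, and a log2 difference of 1.33 ± 0.58. All 3 also had more mRNA in B cells, though only Zfp710 passed that test.

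On the T cell side, Zfp281 had 15 and 10 footprint counts in B cells against 83 and 19 in T cells, or 70.2 and 52.6 CPM against 133 and 151. The T cells were higher in both libraries, with a log2 difference of -1.18 ± 0.45 and an adjusted p of 0.123. Zfp24, known for its part in myelination, had 10 and 4 counts in B cells against 49 and 15 in T cells. Its log2 difference was -1.43 ± 0.56 with an adjusted p of 0.135, while its mRNA was level, at 27.8 and 25.5 CPM against 28.4 and 23.6. Without B cell footprint library 1 the value for Zfp24 was -2.12, which rests on the other B cell library alone, with its 4 counts. Zfp212 and Zfp451, a SUMO ligase, had differences of -1.38 ± 0.56 and -1.27 ± 0.58. Neither had a matching difference in mRNA, where the values were -0.15 and -0.11.

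Zfp706, the gene with the largest mRNA difference, had 10 and 25 footprint counts in B cells against 34 and 11 in T cells. These gave 46.8 and 131 CPM against 54.6 and 87.6, so the T cell levels lay between the B cell levels. The log2 difference was 0.42 ± 0.56. Zfp513 had 4 and 6 counts against 10 and 2 and was not tested. Of the 33 genes, 22 had the same direction in both assays. The differences in mRNA and footprints correlated across these 33 genes with a Pearson r of 0.625 and a Spearman rho of 0.619. Across the 3861 genes at the floor tested in both assays the values were 0.717 and 0.553. Genes are not independent replicates, and each assay's values share its libraries. In footprints the pairs of libraries did not overlap for 23 of the 60 genes, 16 with B cells higher and 7 with T cells higher, or 26.7% and 11.7%. Of all genes at the floor 21.8% and 20.8% had such pairs, and edgeR called 8.38% and 4.80% of all genes tested. Among tested genes at the floor 3.81% were called higher in B cells and 2.12% lower.

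**Figure D2:**
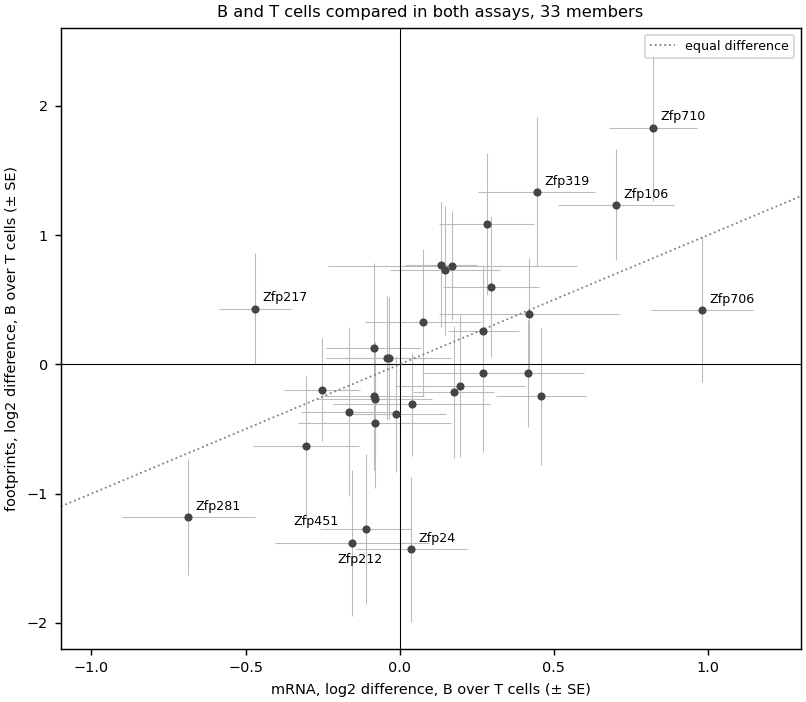
Log2 difference between B and T cells in mRNA (horizontal) and in footprints (vertical) for the 33 zinc finger genes tested in both assays, with bars of 1 standard error from edgeR and a dotted line of equal differences. The vertical bars are several times as long as the horizontal ones for most genes, and Zfp710, Zfp106 and Zfp319 lie high on the right while Zfp24, Zfp212 and Zfp451 lie low with mRNA differences near 0.

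The ratio of footprints to mRNA compares a gene's share of all footprint counts with its share of all mRNA counts, so a ratio of 1 is the average over counts and not over genes. Small structured RNA genes, which took 3.08% to 19.1% of footprint counts, were left out of the totals. Summed together, the 60 genes held 0.342% and 0.362% of mRNA counts in B cells, against 0.333% and 0.323% in T cells. Of footprints they held 0.335% (exact 95% interval 0.312 to 0.360) and 0.311% (0.287 to 0.336) in B cells, against 0.348% (0.333 to 0.364) and 0.374% (0.339 to 0.412) in T cells. The interval of B cell footprint library 3 lay below both B cell mRNA shares, and that of T cell library 2 above both T cell mRNA shares. Intervals cover counting error only.

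**Figure D3:**
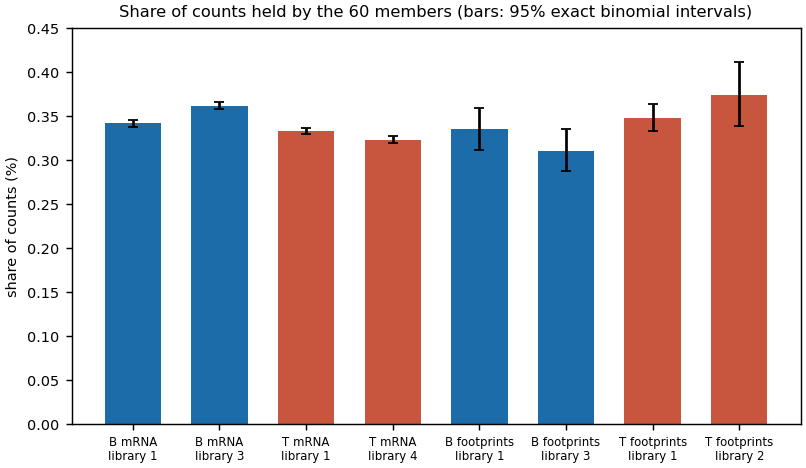
Share of counts, in percent, held by the 60 zinc finger genes together in each of the 8 libraries, for B cells (blue) and T cells (red), with exact 95% binomial intervals as bars. All shares lie between 0.311% and 0.374%, and the footprint bars are wider because of the lower depth.

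The median ratio was 0.811 in B cells (quartiles 0.528 and 1.46) and 0.793 in T cells (0.541 and 1.47), with the counts of a group's libraries added. All 5818 genes at the floor had medians of 0.877 and 0.964. By footprint library the medians of the 60 were 0.823 and 0.748 in B cells against 0.759 and 0.804 in T cells, against 0.886, 0.823, 0.955 and 0.967 for all genes at the floor, so that they were lower in each of the 4 libraries. Since mRNA counts chose the genes, no test was made of this. Summed counts did not show it. Of the counts of all genes at the floor, the 60 held 0.388% and 0.413% of mRNA in B cells against 0.406% and 0.382% of footprints. In T cells they held 0.374% and 0.365% of mRNA against 0.416% and 0.446% of footprints. Ratios under 0.5 were held by 14 of the 60 (23.3%) in each cell type, against 24.9% and 23.5% of genes at the floor. Ratios over 2 were held by 6 genes in B cells, against 9.97% of genes at the floor, and by 10 (16.7%) in T cells, against 15.8%.

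The order of the genes was similar in the cell types. On a log2 scale with 0.05 added, ratios in B and T cells correlated across the 60 genes with a Pearson r of 0.834 and a Spearman rho of 0.778, as a description. The same values over all genes at the floor were 0.867 and 0.820. The ratio was above 1 in all 4 footprint libraries for 12 genes and below 1 in all 4 for 24, and the other 24 were split. By library, 40%, 36.7%, 45% and 40% of the 60 were above 1, against 44.4%, 40.2%, 47.8% and 48.4% of all genes at the floor. For all genes at the floor the shares on the same side in all 4 libraries were not computed. The counts of 12 and 24 are thus not read as a trait of the 60.

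The 12 genes always above 1 were Zfp110, Zfp148, Zfp207, Zfp217, Zfp281, Zfp292, Zfp472, Zfp507, Zfp628, Zfp655, Zfp68 and Zfp869. Zfp292 had the highest pooled ratio in both cell types, with 32 and 23 footprint counts in B cells against 119 and 17 in T cells. Its ratios were 3.01 and 2.40 in B cells against 4.45 and 3.27 in T cells, and the pooled values were 2.71 (exact 95% interval 2.02 to 3.56) and 4.25 (3.52 to 5.09). Zfp281 had ratios of 2.45 and 1.81 in B cells against 3.27 and 3.85 in T cells. Its mRNA, footprint and ratio values were all higher in both T cell libraries, though no difference passed. Zfp655, a KRAB protein that binds the signalling protein Vav1, had ratios of 2.41, 2.40, 2.01 and 3.70 in the same order of libraries. Zfp207 had the most footprints of the 60, with 55, 30, 164 and 26 counts, and ratios of 2.51, 1.52, 2.44 and 1.99. Its interval over both B cell libraries was 1.62 to 2.54. Zfp148 had 2.16, 1.25, 2.67 and 2.41. Zfp628, a factor of male germ cells, ranged more widely, from 1.04 in B cell library 1 to 4.30 in T cell library 2. Zfp869, named after its values were seen, had 2.17, 2.74, 3.18 and 2.38.

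The 24 genes always below 1 were Zfp12, Zfp276, Zfp335, Zfp346, Zfp362, Zfp384, Zfp410, Zfp444, Zfp511, Zfp512, Zfp513, Zfp593, Zfp598, Zfp622, Zfp639, Zfp646, Zfp652, Zfp653, Zfp692, Zfp777, Zfp787, Zfp831, Zfp865 and Zfp91. Zfp653, which acts as a corepressor of nuclear receptors, had 237 and 282 mRNA counts in B cells against 227 and 230 in T cells, but 0 and 0 footprint counts in B cells against 1 and 0 in T cells. A count of 0 over the B cell libraries allows a ratio of up to 0.245, at 3 counts, with an exact 95% upper limit of 0.302, and the T cell ratio was 0.0613 (0.00155 to 0.344). Zfp692 had 2 and 0 footprint counts in B cells against 2 and 0 in T cells, with pooled ratios of 0.130 (0.0157 to 0.472) and 0.0922 (0.0111 to 0.335). Zfp276 had 1, 3, 3 and 0 counts and pooled ratios of 0.167 and 0.118. Its mRNA values were higher in B cells, short of the threshold, and its footprints were few in either cell type. Zfp346 had 2, 1, 4 and 0 counts and pooled ratios of 0.244 and 0.203. These 4 genes and Zfp652 were chosen for description after their values were seen. Zfp652 had better counted ratios of 0.332, 0.246, 0.255 and 0.437.

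Among the role groups the RNA and ribosome genes were spread over the whole range. Zfp598 had ratios of 0.476 and 0.352 in B cells against 0.276 and 0.218 in T cells, from 9, 6, 13 and 2 counts. Zfp622 had 0.871, 0.636, 0.618 and 0.521, so the ribosome-linked pair was below 1 throughout. Zfp106 was near 1, at 0.910, 1.07, 0.720 and 0.925, and Zfp638 lay between 0.741 and 1.86. The lymphocyte genes divided in the same way, with Zfp292 highest of the 60 in the pooled ratio and Zfp335 at 0.619, 0.581, 0.605 and 0.922. Zfp91 had 0.358, 0.755, 0.397 and 0.830. Among the transcription factors Zfp740 had 0.445, 0.461, 0.484 and 1.07, and Zfp384 0.483, 0.595, 0.482 and 0.590. Zfp143 was uneven between libraries of the same cells, with 21 and 4 counts in B cells against 22 and 1 in T cells, and ratios of 2.94, 0.623, 1.10 and 0.258. Zfp592 had 1.47, 0.831, 1.62 and 2.25.

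The 24 split genes were Zfp24, Zfp62, Zfp64, Zfp106, Zfp131, Zfp142, Zfp143, Zfp180, Zfp212, Zfp236, Zfp263, Zfp277, Zfp317, Zfp319, Zfp330, Zfp395, Zfp445, Zfp451, Zfp592, Zfp638, Zfp706, Zfp710, Zfp740 and Zfp746. Of the genes with more mRNA in B cells, Zfp706 had ratios of 0.234 and 0.648 in B cells against 0.609 and 1.01 in T cells. Zfp710 had 1.59 and 1.45 in B cells against 1.03 and 0.330 in T cells. Zfp513, among the 24 below 1, had 0.383, 0.638, 0.637 and 0.655. The ratio of Zfp710 was higher in B cells in both libraries, that of Zfp706 overlapped, and that of Zfp513 did too.

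**Figure D4:**
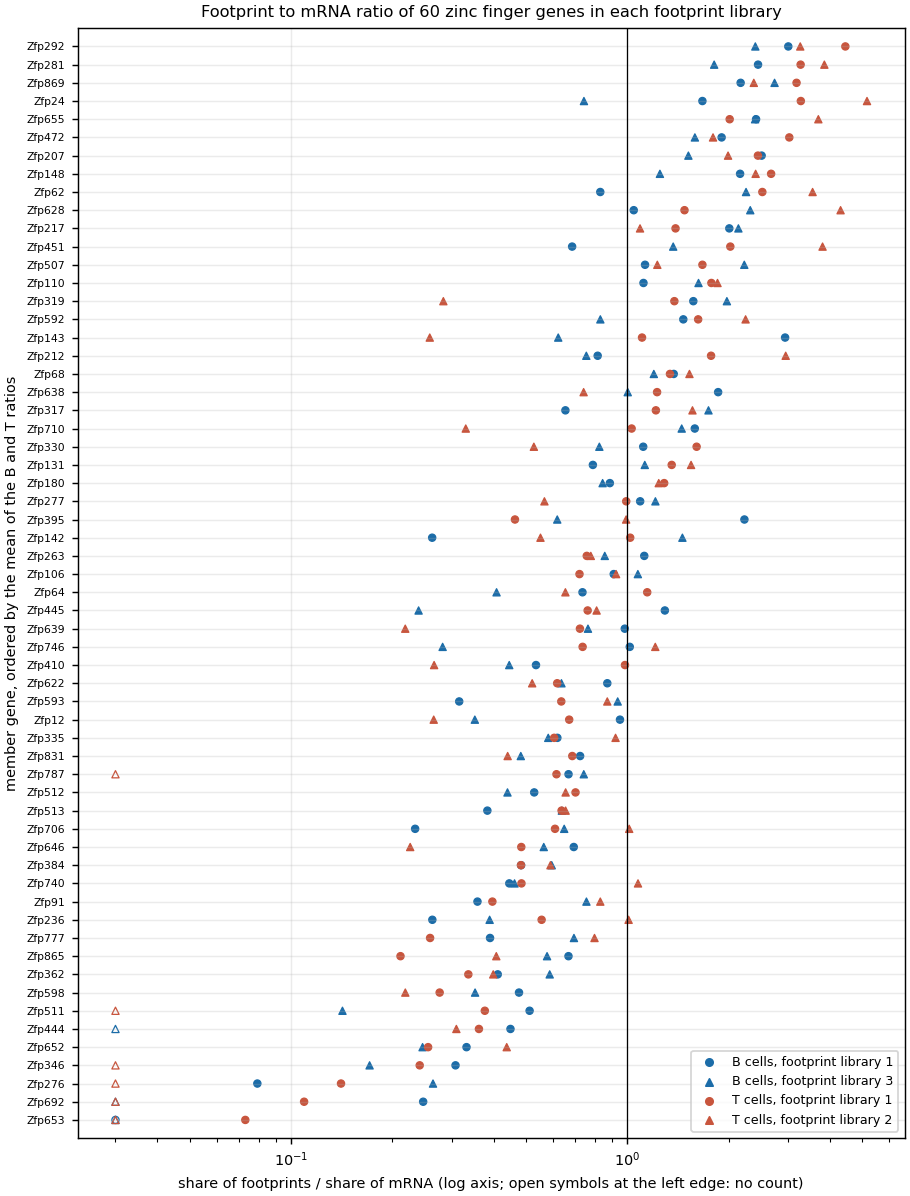
Share of footprint counts over share of mRNA counts (log axis) for the 60 zinc finger genes in each footprint library, 1 gene per line, for B cells (blue) and T cells (red), with open symbols at the left edge where the gene had no footprint count. The line at 1 marks equal shares, the points of Zfp292 at the top run from 2.40 to 4.45, and Zfp653 at the bottom has a count in 1 of the 4 libraries.

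No zinc finger gene passed the test of a difference in this ratio between B and T cells. The test, the interaction of assay and cell type in all 8 libraries, called 0 genes of 13227 in either direction (background 0% and 0%) in edgeR, with 370 higher (2.80%) and 378 lower (2.86%) at an unadjusted p of 0.05. Of the 60, 0 were called, and 2 were higher and 2 lower at an unadjusted p of 0.05. DESeq2 called 2 genes higher (0.0673%) and 8 lower (0.269%) of the 2970 to which it gave an adjusted p, and 0 of the 12 zinc finger genes among them. The 4 were Zfp24 at -1.47 ± 0.51, Zfp865 at 1.48 ± 0.56, Zfp217 at 0.88 ± 0.35 and Zfp212 at -1.24 ± 0.52, each with an adjusted p of 0.875. For Zfp217 the ratio was higher in B cells, at 2.01 and 2.14 against 1.39 and 1.09, while its mRNA was lower there. For Zfp24 it was higher in T cells, at 3.28 and 5.16 against 1.67 and 0.742. The median difference of the 60 was 0.08, against 0.03 for all genes, and the median standard error was 0.53.

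Many zinc finger genes lie close to other genes, and the labels do not say whether counting used strand. Of the 60, 29 overlapped another gene in RefSeq and 31 overlapped none. The overlapping ones had median ratios of 0.609 in B cells and 0.672 in T cells, against 0.986 and 0.968 for the others. Over all genes at the floor the medians were 0.890 and 0.959 with an overlap (2636 genes) and 0.888 and 0.989 without (3026 genes). Zfp276 overlaps Fanca and Vps9d1, Zfp692 overlaps Zfp672, Zfp653 overlaps Gm16845, Zfp706 overlaps LOC115488529, Zfp292 overlaps Gm12363, and Zfp710 overlaps Gm21057 and Gm51449. RNA-seq reads of these genes and their partners may not be separable, and the part of this in the values was not tested. Zfp513, Zfp281, Zfp207, Zfp622, Zfp598 and Zfp106 overlap none. For the 20 genes with a same-named neighbour within 200 kb, whose sequences can be alike, the median ratios were 0.746 and 0.766, against 0.913 and 0.892 for the other 40.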

How the data were processed

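Messenger RNA and ribosome footprints were measured in B and T cells of mouse spleen, in 8 libraries. The authors deposited raw counts per Ensembl gene ID, 1 file per library, as whole numbers, per the labels. FastQC, Bowtie2, TopHat, HTSeq and the mm10 build stand in the submitters' processing notes; roles, versions, settings, strand use and annotation were not given in the sources used here. Of the 53801 IDs, 53620 had a symbol in the names table. The zinc finger genes, lists and tests were chosen with earlier results of these data known, and no protein sequences were used here.

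Differences were tested with edgeR 4.0.16 (quasi-likelihood, TMM, filterByExpr with min.count 10 and min.total.count 15, Benjamini-Hochberg over all genes) under R 4.3.3, after a check on simulated counts. B and T cells were compared within each assay, and the ratio difference was the interaction in all 8 libraries. Libraries of a group differed by more than sampling noise, with chi-square over degrees of freedom from 4.43 to 29.4. Alternatives were DESeq2 1.42.0, RLE scaling (DESeq2's size factors), TMM within each assay, no filter, removal of small structured RNA genes, genes passing in both assays only, floors of 100 and 400 counts, a model of all 8 libraries, each library left out in turn, and a replicate block.

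Genes were named by rule: all on the role lists, those called with non-overlapping libraries, the 5 highest and 5 lowest ratios among genes with at least 10 counts in every footprint library (13 genes) or, for the lowest, 1000 mRNA counts in both libraries of the cell type (6 genes in B cells, 3 in T cells), the 6 with the highest CPM in each assay, and those at the floor. Others were named after their values were seen. Promoter motifs were also chosen after the counts were seen. Pooled ratios have exact binomial (Clopper-Pearson type) intervals.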

Additional observations from a re-analysis of the deposited data

How the results depend on the processing

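The count of zinc finger genes called higher in B cells in mRNA moved most. It was 3 with TMM, 5 in DESeq2, 0 in the model of all 8 libraries and 0 to 2 when a library was left out. With a floor of 100 counts 5 were higher and 4 lower of 121 genes, and with a floor of 400 counts 1 was higher of 25. DESeq2 called 1 lower. In the unfiltered table Zfp513 missed the threshold. Over all genes, leaving out a library gave 737 to 1090 higher and 698 to 954 lower.

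In footprints, leaving out a library gave 0 to 1 zinc finger genes lower, and over all genes 254 to 479 higher and 161 to 419 lower. Without a filter 370 of all genes were lower. With a floor of 100 counts 1 of 48 was higher, which was Zfp318. The median log2 difference of the zinc finger genes was -0.087 in DESeq2, 0.18 without a filter, 0.26 with a floor of 400 counts, 0.12 in the model of all 8 libraries, and -0.0401 to 0.21 when a library was left out. Its sign is therefore not determined.

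In the ratio difference DESeq2 called 2 genes higher and 8 lower over the whole table. The median of the zinc finger genes was -0.16 over the 33 genes passing in both assays, and ran from -0.16 to 0.15 when a library was left out. Only B cells 1 and 3 and T cells 1 share a number between the assays. Deviations from the group means of same-numbered libraries correlated at 0.0865 in B cells and -0.0742 in T cells, over 4660 genes. With 2 libraries per group the deviations are equal and opposite, so B cells 1 and 3 give the same value and are not separate checks. The numbers were not taken to pair the libraries. With a replicate block, which leaves 1 residual degree of freedom, 68 of all genes were higher and 19 lower, and 0 of the 60.

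The median log2 footprint over mRNA value fitted for the 60 genes was -0.45 in B cells and -0.66 in T cells. All genes at the floor had medians of -0.34 and -0.39, and all genes tested -0.44 and -0.54. The scaling here was TMM over all 8 libraries, unlike that of the pooled ratios. With RLE scaling the median of the zinc finger genes was -0.34 and -0.55. It was -0.56 and -0.53 with a floor of 100 counts, and -0.80 and -0.87 with a floor of 400 counts. Without a library it ran from -0.58 to -0.34 and from -0.74 to -0.49. The mean share of T cell footprints held by the 60 genes was 0.309% over all counts and 0.361% without small structured RNA genes. No value changed to a call in the opposite direction. Low footprint depth and 2 libraries per group limit all of these, and the analysis of protein features was not run.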

Other observations

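Genes of the same name pattern that missed the floor included several that were far from level between the cell types. Of 312 such genes 218 were tested in mRNA, and edgeR called 10 higher in B cells (4.59%) and 12 lower (5.5%). These shares were below the 9.40% and 9.06% of all genes. However, the median standard error was 0.32, against 0.24 for all genes tested, and the median size of the difference 0.36 against 0.40. The lower shares are thus not read as a result about these genes. Zfp318, which controls the alternative processing that gives B cells surface IgD, had 1549 and 1541 mRNA counts in B cells against 244 and 197 in T cells, and so missed the floor in 1 library. Its log2 difference was 2.91 ± 0.15 with an adjusted p of 0.00209. Its footprint counts were 40 and 14 in B cells against 8 and 2 in T cells, with a log2 difference of 3.24 ± 0.64 and an adjusted p of 0.00472. It was the only gene of the pattern called in footprints, of 17 tested under the floor and 33 at it.

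The genes named next were picked after their values were seen. Zfp961 had 858 and 918 mRNA counts in B cells against 138 and 191 in T cells, Zfp821 had 310 and 373 against 88 and 78, and Zfp296 had 234 and 255 against 60 and 64. Their log2 differences were 2.52 ± 0.21, 2.13 ± 0.19 and 2.07 ± 0.19. On the T cell side Zfp683 (Hobit), a factor of tissue-resident lymphocytes, had 1 and 9 counts in B cells against 65 and 62 in T cells, where the higher B cell count was in the library with more T cell marker RNA. Zfp827 had 60 and 56 counts in B cells against 211 and 176, and Zfp260 had 145 and 159 against 328 and 479. Their log2 differences were -1.64 ± 0.22 and -1.32 ± 0.25.

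Zfp871 had footprint counts of 33 and 37 in B cells against 74 and 20 in T cells on its few mRNA counts. Its ratio was 20.2, 25.2, 19.1 and 26.5 in the 4 footprint libraries. The highest ratio among the 60 genes in any library was 5.16, for Zfp24 in T cell library 2. The 60 were chosen for their mRNA counts and Zfp871 failed that floor, so these values are not on an equal footing. Among all genes at the floor pooled ratios reached 39.05 in B cells and 44.19 in T cells. Zfp871 lies within 200 kb of Zfp472, and the part of like sequences in its counts was not tested. The log2 difference of the Zfp871 ratio between B and T cells was 0.29 ± 0.77 and did not pass the test.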
